A study of Homo sapiens with 32 samples.

Results

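STAG2 KO and Polycomb KO clones of A673, an Ewing sarcoma cell line, were compared directly with each other. The 3 STAG2 KO libraries of experiment 2 (clones 2, 3 and 5) were set against the 3 EZH2 KO and 3 SUZ12 KO libraries of the same experiment, 9 of the 32 samples of the series. They were chosen by the genotype in their labels alone (iCas9+STAG2ko, iCas9+EZH2ko or iCas9+SUZ12ko). EZH2 KO and SUZ12 KO together are called PRC2 KO below. The study asked how loss of STAG2 alters transcription in Ewing sarcoma, and whether loss of Polycomb repressive complex 2 (PRC2) alters it likewise.

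A673 carries the fusion transcription factor EWS::FLI1. Every KO clone was derived by CRISPR editing from 1 A673 clone that holds a doxycycline-inducible Cas9 at the AAVS1 locus, so all 9 libraries share that cassette and origin. Each KO library is labelled as another clone, and a property of a single clone is part of its value. The p-values of the comparison between knockouts measure the spread between these clones. The STAG2-proficient cells of experiment 2 (WT) were 2 libraries of the unedited Cas9 clone and 1 of the parental line. They stood for 2 cell sources, stayed out of the test and show only where the unedited level lies.

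STAG2 is an alternative subunit of cohesin, the ring complex that folds chromatin into loops and holds sister chromatids together. PRC2 places the methyl mark H3K27me3, which keeps developmental genes of other lineages, such as many HOX, GATA and PAX genes, silent. EZH2 is its catalytic subunit, and SUZ12 a scaffold that the complex needs.

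Counts per library summed to 16848611 to 20663679 over the 9 KO libraries. STAG2 KO clone 5 stood apart from the other STAG2 KO clones. Its log2 CPM (read counts scaled to library size) correlated with those of clones 2 and 3 at r = 0.936 and 0.947 across genes, against 0.985 between clones 2 and 3. Of 9 markers of Ewing sarcoma identity, 8 were expressed in every library, and CD99 was listed at 0 in all. Of 12 blood and endothelial markers, 9 never reached 1 CPM in any KO or WT library.

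The edited genes were checked first. STAG2 was at 62.2, 67.8 and 59.7 CPM in STAG2 KO clones 2, 3 and 5, and at 222 (lowest), 251 (median) and 278 (highest) in PRC2 KO cells. The groups lay well apart (log2 difference -1.97 ± 0.13 SE, adjusted p = 3.44e-05, edgeR). EZH2 was at 193, 189.8 and 172 CPM in STAG2 KO, 45.5, 56.0 and 28.2 in EZH2 KO and 216, 203 and 229 in SUZ12 KO clones. The EZH2 transcript was thus low in the EZH2 KO clones alone. SUZ12 was at 84.5, 79.9 and 53.7 CPM in STAG2 KO, 48.6, 46.2 and 62.2 in EZH2 KO and 15.7, 11.2 and 20.5 in SUZ12 KO clones. It was lowest in the SUZ12 KO clones, while STAG2 KO and EZH2 KO clones overlapped. Each edited gene kept a measurable transcript, so the RNA level alone does not show loss of the protein. Between EZH2 KO and SUZ12 KO, EZH2 was the 1 gene called by edgeR (log2 difference -2.32, adjusted p = 0.032), 0.00665% of those tested. DESeq2 called 22. By edgeR 462 of 15036 genes had an unadjusted p under 0.05, fewer than the 1 in 20 that chance gives. Few calls do not show that EZH2 KO and SUZ12 KO were alike. Both PRC2 KOs were averaged with equal weight.

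PRC2 KO libraries held more expressed genes. At 1 CPM or more, STAG2 KO libraries held 12470 ± 504 genes (mean ± SD, n = 3) and PRC2 KO libraries 13550 ± 249 (n = 6), a difference of -1080. Every PRC2 KO library (13310 to 13926) lay above every STAG2 KO library (12097 to 13040). The two-sided exact permutation test over 84 relabellings gave p = 0.0119, the smallest this design allows. WT libraries held 12346 to 12425 genes, within the STAG2 KO range. At 5 CPM or more the difference was smaller, at -583 genes (exact permutation p = 0.0357), and the groups overlapped (10235 to 10938 in STAG2 KO, 10907 to 11337 in PRC2 KO). In these bulk libraries more cells expressing a gene and more RNA per cell cannot be told apart.

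**Figure D1:**
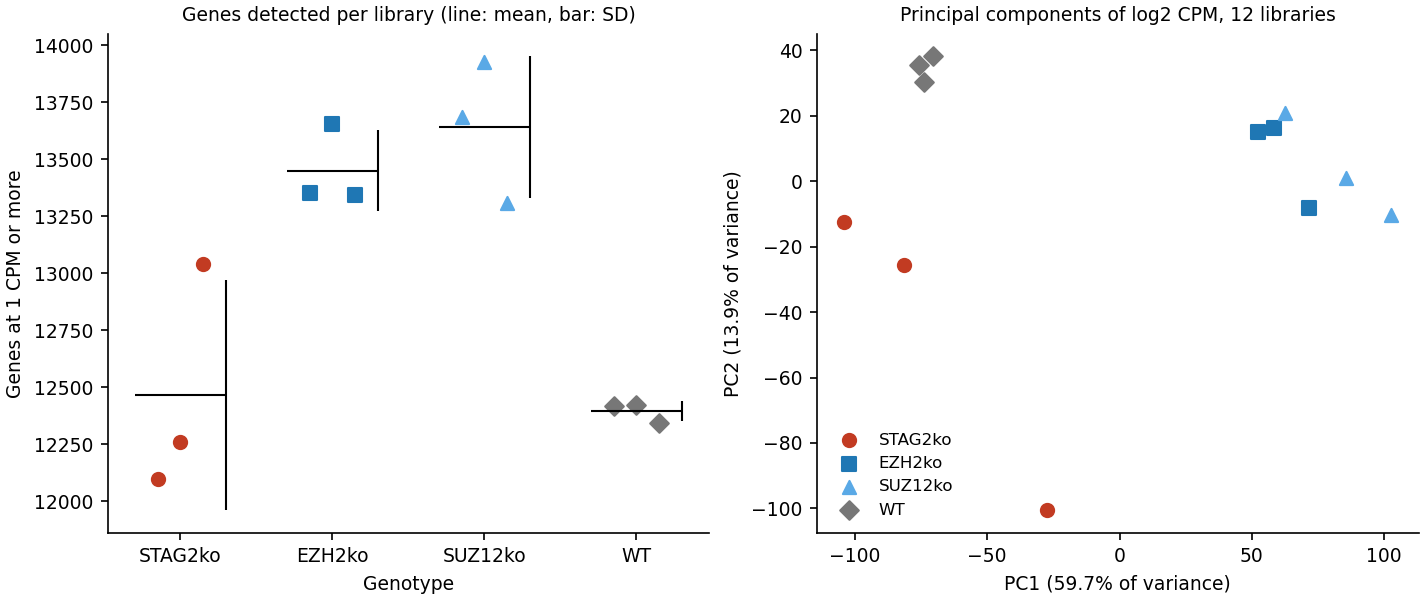
Genes at 1 CPM or more in each library and the first 2 principal components of log2 CPM over 12 libraries, with colors for the genotype. PRC2 KO libraries lie on one side of the first component, which held 59.7% of the variance, and WT and STAG2 KO libraries on the other, with STAG2 KO clone 5 away from its sister clones.

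Of 15036 genes tested, 3653 (24.3%) differed between STAG2 KO and PRC2 KO. In STAG2 KO cells 1668 genes (11.1%) were higher and 1985 (13.2%) lower. In 4067 genes (27%) the STAG2 KO and PRC2 KO libraries did not overlap. The directions were unlike in size. The median log2 difference was 0.69 among the higher genes and -2.61 among the lower ones, and 132 genes were over 4-fold higher against 1222 over 4-fold lower. Against EZH2 KO alone 2329 genes (15.5%) were called, and against SUZ12 KO alone 2978 (19.8%). The count depended on single STAG2 KO clones. It was 2274 without clone 2, 2331 without clone 3 and 5755 without clone 5, and 3342 of the 3653 genes were also called without clone 5. The higher genes numbered 884 without STAG2 KO clone 2, 992 without clone 3 and 1037 without SUZ12 KO clone 1, and the lower genes 3335 without STAG2 KO clone 5.

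**Figure D2:**
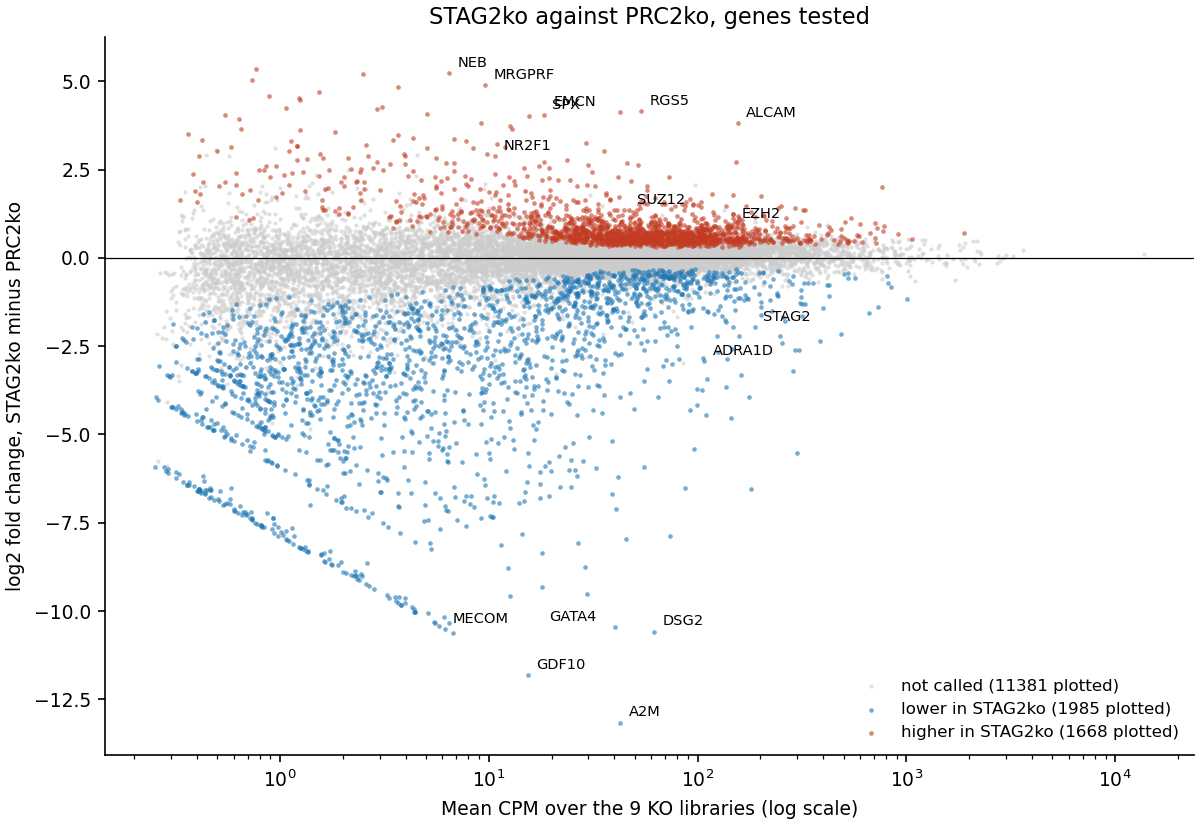
Log2 difference between STAG2 KO and PRC2 KO (vertical axis) against the mean CPM over the 9 KO libraries (log axis) for each gene tested, with called genes in color. Differences below 0 reach much further than those above it, and 371 called genes had at most 3 counts over the STAG2 KO libraries, for which the fitted difference is no measure of size.

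Many of the lower genes were scarcely expressed in STAG2 KO cells. Of the 1985, 1026 (51.7%) had a mean under 1 CPM in STAG2 KO and 934 (47.1%) in WT cells. Their median level was 0.877 CPM in STAG2 KO, 8.52 in PRC2 KO and 1.37 in WT cells. On the log2(CPM + 0.1) scale the WT mean lay nearer to STAG2 KO for 1427 of them (71.9%). The 1668 higher genes were mostly well expressed in every genotype, with medians of 64.7 CPM in STAG2 KO, 40.8 in PRC2 KO and 49.7 in WT cells. For 926 of these (55.5%) the WT mean lay nearer to PRC2 KO, and for 742 (44.5%) nearer to STAG2 KO.

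**Figure D3:**
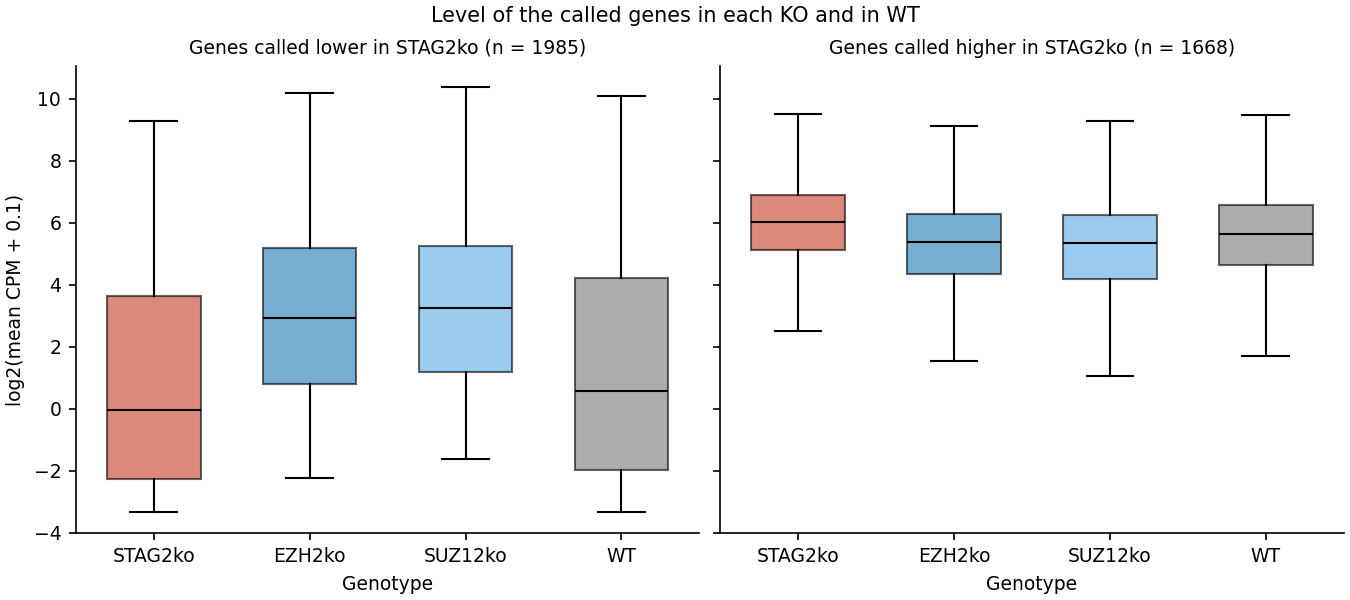
Mean level of the called genes in each genotype as log2(CPM + 0.1), for the 1985 genes lower in STAG2 KO cells and the 1668 higher. The knockouts differ here by selection, whereas the WT libraries took no part in it, and their median of 1.37 CPM lies near the 0.877 of STAG2 KO for the lower genes.

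The 10 genes of largest difference in each direction and up to 3 per gene list are described below. They were picked only if called, with at least 5 CPM on average and no overlap between groups. Lack of overlap in them is thus part of the selection, and 27% of all genes tested did not overlap. The genes of most negative difference were at or near 0 in every STAG2 KO clone and expressed in every PRC2 KO clone. A2M, encoding the protease inhibitor alpha-2-macroglobulin (chr12:9067664-9116229, minus strand), had no count in any STAG2 KO library. PRC2 KO cells held 13.2 (lowest), 60.5 (median) and 127 (highest) CPM of it, and WT cells 0.211 to 0.428. All PRC2 KO libraries were thus above all others. Against a floor of 3 counts over the 3 STAG2 KO libraries together, A2M was at least 1247-fold higher in PRC2 KO cells (adjusted p = 0.000458).

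GDF10 encodes a secreted ligand of the TGF-beta superfamily (chr10:47300197-47313577, plus strand). It had no count in STAG2 KO cells and was at 8.03 (lowest), 21.7 (median) and 39.4 (highest) CPM in PRC2 KO cells, at least 447-fold higher (adjusted p = 0.000691). DSG2, a desmosomal cadherin (chr18:31498177-31549008, plus strand), had 1 count in each STAG2 KO clone (0.0542, 0.0516 and 0.0527 CPM) and stood at 66.8 (lowest), 99.9 (median) and 113 (highest) CPM in PRC2 KO cells. The PRC2 KO clones were close to each other and far from STAG2 KO, with a ratio of 1750 (95% counting interval 598 to 8485) and an adjusted p of 2.77e-07.

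GATA4, a transcription factor of heart and endoderm (chr8:11676959-11760002, plus strand), had 2 counts over the STAG2 KO libraries, both in clone 5. PRC2 KO cells held 31.4 (lowest), 63.3 (median) and 78.2 (highest) CPM, a ratio of 1740 (95% counting interval 482 to 14370) with an adjusted p of 1.72e-05. The remaining genes of this group had no count in STAG2 KO cells. MECOM, a zinc finger transcription factor, was at least 172-fold higher in PRC2 KO cells, DLK1, an imprinted transmembrane protein, at least 191-fold, and COL4A5, a basement membrane collagen chain, at least 162-fold. For RADX, a single-stranded DNA binding protein of replication forks, the bound was 156-fold, and for the dopamine receptor DRD2 154-fold. Their adjusted p lay between 0.000202 for RADX and 0.00662 for DLK1. PRC2 KO clones varied widely for some, DLK1 spanning 1.20 to 29.1 CPM and COL4A5 1.14 to 17.6. WT1-AS was at least 192-fold higher, but its exons overlap WT1 on the other strand, and these libraries carry no strand information. WT1, named here for that overlap, was lower in STAG2 KO cells as well (log2 difference -3.88 ± 0.39, adjusted p = 0.0003).

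At the opposite end stood genes far higher in STAG2 KO than in PRC2 KO cells, although some, such as ALCAM, were expressed in every PRC2 KO clone. ALCAM, a cell adhesion molecule of the immunoglobulin family (chr3:105366909-105576900, plus strand), was at 496, 261 and 469 CPM in STAG2 KO clones 2, 3 and 5 and at 21.4 (lowest), 29.2 (median) and 39.8 (highest) in PRC2 KO cells. No library came near the other group (log2 difference 3.81 ± 0.25, adjusted p = 3.44e-05). EMCN, encoding the sialomucin endomucin (chr4:100395341-100880126, minus strand), was at 103, 75.7 and 165 CPM against 1.93 (lowest), 5.17 (median) and 12.3 (highest) (4.12 ± 0.51, adjusted p = 0.000849). SPX, encoding the peptide hormone spexin, was at 19.7, 28.2 and 98.4 CPM in the STAG2 KO clones and at 0.962 (lowest), 2.51 (median) and 9.36 (highest) in PRC2 KO cells. Clone 5 was the highest, and the log2 difference of 4.05 ± 0.67 (adjusted p = 0.00306) was 3.02 without it.

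For 3 further genes of this group clone 5 was the furthest below its sister clones. NEB, encoding the sarcomere protein nebulin (chr2:151485336-151734487, minus strand), was at 20.7, 33.6 and 0.948 CPM in clones 2, 3 and 5, and at 0.268 (lowest), 0.504 (median) and 0.831 (highest) in PRC2 KO cells. MRGPRF, encoding an orphan G protein-coupled receptor, was at 52.4, 26.3 and 2.48 CPM against 0.277 to 1.39. RGS5, a regulator of G protein signaling, was at 289, 130 and 13.8 CPM against 2.93 to 13.2. By the selection of these genes, clone 5 lay above the highest PRC2 KO library in each case. Log2 differences were 5.24 ± 0.82 for NEB, 4.88 ± 0.80 for MRGPRF and 4.16 ± 0.72 for RGS5, with adjusted p of 0.00239, 0.00294 and 0.00393. Without clone 5 the differences were 5.79, 5.41 and 4.68. They were smaller without the highest clone, at 4.48 for NEB without clone 3, and 3.98 for MRGPRF and 3.16 for RGS5 without clone 2.

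ZFP30 (chr19:37613749-37692337, minus strand) and ZNF607 (chr19:37696371-37719761, minus strand), neighboring genes of KRAB zinc finger proteins, were among the 10 highest too. ZFP30 was at 19.2, 21.1 and 30.4 CPM in STAG2 KO clones and at 0.269 (lowest), 1.78 (median) and 5.44 (highest) in PRC2 KO cells. ZNF607 was at 10.2, 10.7 and 19.6 CPM against 0.107 (lowest), 0.264 (median) and 2.74 (highest). Log2 differences were 3.81 ± 0.51 (adjusted p = 0.00117) and 4.08 ± 0.86 (adjusted p = 0.00914). That of ZNF607 was 3.66 (adjusted p = 0.0517) against EZH2 KO and 4.50 (adjusted p = 0.0243) against SUZ12 KO, and 5.18 and 4.95 without EZH2 KO clone 3 and SUZ12 KO clone 2. MSRB3, a methionine sulfoxide reductase, and ALPK2, an atypical protein kinase, completed the group with 3.65 ± 0.52 and 3.72 ± 0.63 (adjusted p = 0.00149 and 0.00369). Clone 5 was the lowest STAG2 KO clone for both. Clones 2, 3 and 5 held 38.4, 43.9 and 16.6 CPM of MSRB3 and 46.2, 40.7 and 10.6 of ALPK2.

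**Figure D4:**
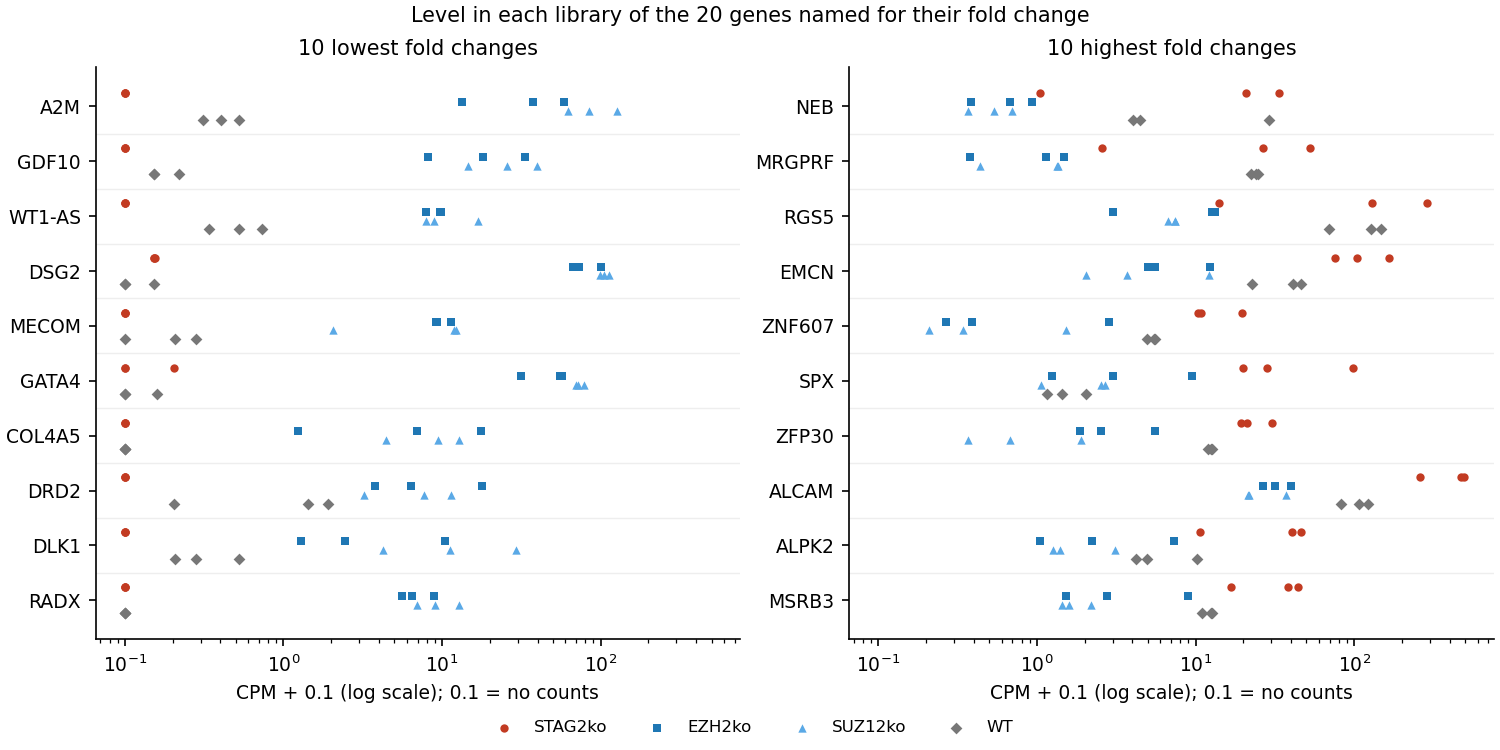
CPM + 0.1 (log axis) in each library for the 10 genes of lowest and the 10 of highest log2 difference between STAG2 KO and PRC2 KO, with WT for reference. Genes were picked only if STAG2 KO and PRC2 KO libraries did not overlap. Among the lowest, STAG2 KO points sit at or near 0.1, which is no count. Among the highest, clone 5 comes close to the PRC2 KO level for NEB (0.948 CPM) and RGS5 (13.8 CPM).

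Promoters were taken from RefSeq (GRCh38.p14), whose table held 61 of the 89 named genes. The 200 bases before the start are printed 5′ to 3′ with every CG in capitals, because PRC2 is known for its preference for CpG-rich promoters. DSG2 and GDF10 were expressed in PRC2 KO but hardly or not in STAG2 KO cells, and ALCAM and EMCN had the opposite difference. They were chosen after their values were seen.
DSG2 (chr18:31497977-31498176, plus strand): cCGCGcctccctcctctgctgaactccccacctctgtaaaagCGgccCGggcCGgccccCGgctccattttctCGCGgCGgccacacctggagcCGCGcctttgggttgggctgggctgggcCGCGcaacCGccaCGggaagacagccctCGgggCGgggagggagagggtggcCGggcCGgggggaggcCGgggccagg
GDF10 (chr10:47299997-47300196, plus strand): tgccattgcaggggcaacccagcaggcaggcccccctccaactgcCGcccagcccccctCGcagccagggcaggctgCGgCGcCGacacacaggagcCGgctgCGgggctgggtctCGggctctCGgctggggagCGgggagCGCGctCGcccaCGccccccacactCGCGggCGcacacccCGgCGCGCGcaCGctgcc
ALCAM (chr3:105366709-105366908, plus strand): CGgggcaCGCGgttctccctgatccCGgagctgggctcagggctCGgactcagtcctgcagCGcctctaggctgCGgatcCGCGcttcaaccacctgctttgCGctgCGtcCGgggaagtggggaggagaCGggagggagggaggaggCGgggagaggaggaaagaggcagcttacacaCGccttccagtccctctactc
EMCN (chr4:100518023-100518222, minus strand): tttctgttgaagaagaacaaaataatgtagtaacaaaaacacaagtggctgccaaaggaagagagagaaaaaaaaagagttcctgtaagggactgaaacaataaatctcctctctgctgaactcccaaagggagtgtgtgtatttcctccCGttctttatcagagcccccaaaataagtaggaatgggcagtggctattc
These stretches held 20, 22, 15 and 1 CG. Among the 10 lowest genes, 5 had a promoter in the table, with 6 to 22 CG per 200 bases over their listed starts. Among the 10 highest 9 did, with 0 to 25, so the ranges overlapped.

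Over all called genes, promoters were read from hg38 at the canonical GENCODE start (250 bases before to 50 after), which gave a window for 97.5% of the lower and 98.6% of the higher genes. The median ratio of observed to expected CpG was 0.776 for genes lower in STAG2 KO cells, 0.868 for those higher and 0.843 for all genes tested. A ratio over 0.6 was found in 71.7%, 88.5% and 82.7% of these promoters, so CpG-poor promoters made up a larger share of the lower genes. The run GGAAGGAA, on either strand, which repeats the core motif of ETS factors such as FLI1, lay in 4.29% of the promoters of lower genes, 2.98% of those of higher genes and 3.29% of all. TATAAA, on either strand, lay in 7.91%, 4.86% and 6.03%. Such matches describe the sequence and are not binding sites.

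A difference between knockouts can lie in either of them. Log2 differences from WT are therefore set side by side for named genes, from a fit of all 12 libraries in which 1305 genes (8.63%) were called for STAG2 KO, 2377 (15.7%) for EZH2 KO and 3112 (20.6%) for SUZ12 KO. These comparisons share the WT libraries, of which 2 came from 1 clone (r = 0.994 between them, and 0.985 between each and the parental line), so their p-values do not rest on 3 separate WT sources. DSG2 differed from WT by 1.25 in STAG2 KO, 11.65 in EZH2 KO and 12.05 in SUZ12 KO cells (adjusted p = 0.542, 1.67e-08 and 1.11e-08). For ADRA1D, an adrenergic receptor gene induced by the fusion, the difference was -2.67 in STAG2 KO, 0.24 in EZH2 KO and 0.30 in SUZ12 KO cells (adjusted p = 0.00282, 0.683 and 0.594). DSG2 was thus set apart by the PRC2 KO clones and ADRA1D by the STAG2 KO clones.

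The genes GRP, SOX9 and MSC, expressed in WT cells, were like ADRA1D in this. The neuropeptide gene GRP differed from WT by -3.52 in STAG2 KO, 0.56 in EZH2 KO and 0.32 in SUZ12 KO cells (adjusted p = 0.000695, 0.328 and 0.571). The chondrogenic factor SOX9 differed by -3.58 in STAG2 KO, -0.19 in EZH2 KO and 0.31 in SUZ12 KO cells (adjusted p = 0.00251, 0.8 and 0.651), and the bHLH factor MSC by -1.51 in STAG2 KO, 0.02 in EZH2 KO and 0.02 in SUZ12 KO cells (adjusted p = 0.000728, 0.956 and 0.947). NTN1, an axon guidance ligand, differed by -4.38 in STAG2 KO, 0.99 in EZH2 KO and 1.13 in SUZ12 KO cells (adjusted p = 0.000448, 0.122 and 0.0689). Every PRC2 KO library (112 to 190 CPM) lay above every WT library (44.6 to 85.8), although neither PRC2 KO difference from WT was called. COL6A3, a microfibrillar collagen chain, moved both ways, by -3.36 in STAG2 KO, 2.50 in EZH2 KO and 2.39 in SUZ12 KO cells (adjusted p = 0.00117, 0.00117 and 0.000992).

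Of the genes higher in STAG2 KO cells, NR2F1, an orphan nuclear receptor (chr5:93583222-93594611, plus strand), was at 36.1, 18.8 and 20.9 CPM in STAG2 KO clones. It was at 1.97 (lowest), 3.36 (median) and 4.95 (highest) in PRC2 KO cells. The parental line held 1.05 CPM and the unedited Cas9 clone 5.94 and 6.46. STAG2 KO clones were above all others (log2 difference from PRC2 KO 2.88 ± 0.33, adjusted p = 0.000553). The PRC2 KO clones lay above the parental line and below the Cas9 clone they derive from. From WT it differed by 2.50 in STAG2 KO, -0.36 in EZH2 KO and -0.35 in SUZ12 KO cells (adjusted p = 0.0223, 0.69 and 0.684). RGS5 differed from WT by 0.33 in STAG2 KO, -3.59 in EZH2 KO and -4.02 in SUZ12 KO cells (adjusted p = 0.819, 0.0155 and 0.00727). All PRC2 KO clones were below the WT libraries (68.8 to 148 CPM). STAG2 KO clone 2 (289 CPM) lay above WT and clone 5 (13.8 CPM) below it, so the STAG2 KO mean does not show a level like WT. ALCAM moved both ways, by 1.97 in STAG2 KO, -1.67 in EZH2 KO and -1.96 in SUZ12 KO cells (adjusted p = 0.00279, 0.00284 and 0.000882).

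Gene lists were then counted, to be read against the 11.1% higher and 13.2% lower, and the median of 0.01, of all genes tested. A gene silent in STAG2 KO cells passed the filter on low counts through its PRC2 KO level alone, so the shares describe the members tested and are not tests of the lists. Without STAG2 KO clone 5, 37.5% of all genes tested were called, and several list counts moved by over 1.5 times. Called members numbered 7 lower and 4 higher of 26 for PRC1 subunits, 2 lower and 10 higher of 45 for clustered protocadherins, 11 lower and 3 higher of 35 for WNT genes and 2 lower and 0 higher of 5 for kinase inhibitors. PRC2 accessory subunits went the other way, to 1 lower and 2 higher of 8, and lineage bHLH factors gave 8 lower and 4 higher of 20. For EWS::FLI1 targets the counts were 102 lower and 124 higher of 556 at promoters, 165 lower and 127 higher of 688 at short and 55 lower and 24 higher of 153 at long repeats. For the STAG2 signature they were 104 lower and 4 higher of 165 among its lower and 8 lower and 24 higher of 59 among its higher genes. Immune, replication and glycolysis genes are given with and without this clone beside their counts.

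HOX genes, which specify position along the body axis, differed by cluster. Of 39 listed, 35 were tested. All 9 HOXA genes tested were lower in STAG2 KO than in PRC2 KO cells. Of 8 HOXD genes tested, 4 were higher (HOXD8, HOXD9, HOXD10 and HOXD11) and none lower by edgeR, of 9 HOXB genes HOXB2 alone was called, as higher (not against EZH2 KO alone, adjusted p = 0.0556), and of 9 HOXC genes none. The split by cluster, and the HOXD genes listed in it, were chosen after their values were seen.

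Summed over the HOXA cluster, STAG2 KO clones 2, 3 and 5 held 0, 0.0516 and 0.0527 CPM and WT libraries 0. PRC2 KO libraries held 28.6 (lowest), 32.5 (median) and 42.6 (highest), so every PRC2 KO clone expressed the cluster and no other library did beyond single counts. The HOXD sum was 382, 420.5 and 433 CPM in STAG2 KO clones, 282 to 322 in PRC2 KO and 335 to 359.9 in WT cells. Here every library expressed the cluster, and STAG2 KO lay above both others. HOXA7 alone was at 0, 0.0516 and 0.0527 CPM in STAG2 KO and 5.93 to 11.3 in PRC2 KO cells (adjusted p = 6.08e-05). HOXD10 was at 45.4, 43.0 and 56.2 against 23.5 to 37.6 (0.82 ± 0.15, adjusted p = 0.00517). Unlike the HOXD sum, its WT level of 46.2 to 47.8 CPM lay within the STAG2 KO range. From WT it differed by 0.03 in STAG2 KO, -0.61 in EZH2 KO and -0.92 in SUZ12 KO cells (adjusted p = 0.919, 0.0224 and 0.00201, edgeR).

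Among other homeobox genes, mostly regulators of organ and neuron identity, 68 were tested of 88 listed, with 30 lower and 5 higher in STAG2 KO cells and a median of -1.19. PAX1, a factor of the developing spine, was at 0, 0.103 and 0.0527 CPM against 3.16 to 19.1, and LHX5, of the developing brain, at 0.0542, 0.206 and 0 against 6.99 to 18.6 (adjusted p = 0.000297 and 0.000423). Both were near 0 in each STAG2 KO clone.

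Other lineage regulators had more called members lower than higher, but many were not called. Not called were 14 of 28 GATA and forkhead, 11 of 20 lineage bHLH and 15 of 23 SOX and T-box factors, and 22 of 34 nuclear receptors. Among GATA and forkhead factors 28 were tested of 46 listed, with 10 lower and 4 higher. FOXD3, of the neural crest, was lower (-2.34 ± 0.34, adjusted p = 0.00176). FOXA1, a pioneer factor of endoderm, was higher, at 19.5, 10.0 and 21.3 CPM in STAG2 KO clones against 0.402 (lowest), 1.81 (median) and 2.88 (highest) (3.37 ± 0.39, adjusted p = 0.000632). Among lineage bHLH factors 20 were tested of 44 listed, with 7 lower and 2 higher. TAL1, of blood and endothelium, was lower (-5.18 ± 0.72) and ATOH8 higher (1.23 ± 0.25), with adjusted p of 0.00136 and 0.00848. TAL1 was at -6.53 without clone 5.

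Among SOX and T-box factors 23 were tested of 36 listed, with 7 lower and 1 higher. SOX9 (-3.61 ± 0.54, adjusted p = 0.00191) and the stem cell factor SOX2 (-0.86 ± 0.13, adjusted p = 0.00232) were lower. SOX11, of immature neurons, was at 227, 181 and 177 CPM in STAG2 KO clones against 67.2 (lowest), 81.3 (median) and 93.2 (highest) (1.29 ± 0.13, adjusted p = 0.000297).

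Among nuclear receptors 34 were tested of 48 listed, with 10 lower and 2 higher. ESRRB, known from pluripotent cells, was at 0, 0.103 and 0.0527 CPM in STAG2 KO clones, which is 3 counts in all, against 29.8 (lowest), 40.9 (median) and 62.6 (highest) in PRC2 KO cells. The ratio was 845 (95% counting interval 289 to 4100), with an adjusted p of 1.68e-05. RORB, of retina and cortex, was at 0, 0.103 and 0.685 CPM against 39.7 to 82.6 (-7.95 ± 0.63, adjusted p = 0.000105), and -10.15 without clone 5. PPARA, a regulator of fatty acid oxidation, was lower (-3.56 ± 0.9964, adjusted p = 0.0291), a call lost on leaving out STAG2 KO clone 2 or 3, EZH2 KO clone 2 or SUZ12 KO clone 1 or 2 (adjusted p = 0.0522 to 0.101). Without clone 5 it was -5.16.

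Neuroendocrine secretory genes were lower in STAG2 KO cells in the main. Of these 23 were tested of 30 listed, with 14 lower and 1 higher and a median of -2.36. GRP was at 10.6, 12.1 and 26.4 CPM in STAG2 KO clones and at 136 (lowest), 242 (median) and 408 (highest) in PRC2 KO cells. The log2 difference was -3.94 ± 0.44 (adjusted p = 0.000518). The vesicle protein gene SYT4 (-6.94 ± 0.63, adjusted p = 0.000201) and the neuropeptide gene GAL (-5.14 ± 0.56, adjusted p = 0.000433) stayed under 1 CPM in each STAG2 KO clone.

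Among axon guidance genes 47 were tested of 53 listed, with 17 lower and 6 higher. NTN1 was at 3.41, 5.47 and 0.895 CPM against 112 (lowest), 136 (median) and 190 (highest) (-5.42 ± 0.50, adjusted p = 0.000215), with clone 5 lowest. The ephrin ligand EFNB2 (-4.28 ± 0.67) and the ephrin receptor EPHB1 (-5.88 ± 0.92) were lower too, with adjusted p of 0.00247 and 0.00239. Without STAG2 KO clone 3 the difference was -6.02 for NTN1 and -7.12 for EPHB1. Transcripts that clone 5 held at a lower level than its sisters thus stood beside others, such as GRP, that it held at a higher one.

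Signaling genes were mixed. Among BMP and TGF-beta genes 42 were tested of 49 listed, with 10 lower and 8 higher. The ligand BMP2 had 1 count over the STAG2 KO libraries and 0.720 to 21.6 CPM in PRC2 KO cells, a ratio of 449.5 (95% counting interval 80.5 to 17770) with an adjusted p of 0.00473. BMP7 was at 3.90, 0.774 and 1.05 CPM against 11.3 to 38.3 (-3.43 ± 0.56, adjusted p = 0.00306), and -4.49 without clone 2. Of WNT ligands, receptors and antagonists, 33 were tested of 51 listed, with 7 lower and 2 higher, 27.3% in all and near the 24.3% of all genes. The secreted antagonist SFRP1 had 1 count in STAG2 KO cells and 1.94 to 18.6 CPM in PRC2 KO cells, a ratio of 465 (95% counting interval 83.2 to 18380) with an adjusted p of 0.000877. The WNT amplifier RSPO2 (-4.38 ± 0.72, adjusted p = 0.00306) and the ligand WNT5A (-0.83 ± 0.17, adjusted p = 0.00891) were lower as well.

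Of collagens 33 were tested of 44 listed, with 14 lower and 2 higher. The fibrillar collagens COL1A1 and COL3A1 went opposite ways. COL1A1 was at 42.9, 68.6 and 13.7 CPM in STAG2 KO clones and 252 (lowest), 401 (median) and 559.5 (highest) in PRC2 KO cells (-3.21 ± 0.45, adjusted p = 0.00141). COL3A1 was at 452, 261 and 293 CPM against 17.5 (lowest), 34.2 (median) and 146 (highest) (2.71 ± 0.51, adjusted p = 0.00576). The difference in COL3A1 was 1.85 (adjusted p = 0.0795) against EZH2 KO and 3.57 (adjusted p = 0.00693) against SUZ12 KO, so it was not called against EZH2 KO alone. Relative to WT, COL1A1 differed by -2.41 in STAG2 KO, 1.24 in EZH2 KO and 0.40 in SUZ12 KO cells (adjusted p = 0.00937, 0.0769 and 0.538) and COL3A1 by -0.58 in STAG2 KO, -2.41 in EZH2 KO and -4.13 in SUZ12 KO cells (adjusted p = 0.567, 0.0256 and 0.00163). The parental line held 240 CPM of COL3A1 and the unedited Cas9 clone 656 and 613. All STAG2 KO clones lay between the parental line and the Cas9 clone they derive from, so the pooled difference does not show a level like WT. COL1A1 and COL3A1 are both on the list of mesenchymal genes repressed by EWS::FLI1, of which 38 were tested of 38 listed, with 6 lower and 8 higher.

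Canonical activated targets of EWS::FLI1 were not of 1 direction. Of these 35 were tested of 36 listed, with 9 lower and 9 higher in STAG2 KO cells. NPY1R, a neuropeptide Y receptor whose exons overlap NPY5R, was at 76.2, 65.3 and 53.5 CPM against 354 (lowest), 368 (median) and 515 (highest) (-2.62 ± 0.20, adjusted p = 8.06e-05). ADRA1D was at 30.7, 22.1 and 6.43 CPM against 140.7 (lowest), 153 (median) and 159 (highest) (-2.92 ± 0.42, adjusted p = 0.0016). NPY itself was at 1.35, 1.75 and 3.85 CPM against 12.4 to 33.2 (-3.15 ± 0.49, adjusted p = 0.00227).

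Of the 8 identity markers tested, 3 were higher and 3 lower. PRKCB, a protein kinase C isoform, was at 101, 129 and 202 CPM against 548 (lowest), 666 (median) and 749 (highest) (-2.17 ± 0.22, adjusted p = 0.00031). NKX2-2, a homeobox factor induced by the fusion, was lower (-1.30 ± 0.30, adjusted p = 0.0127, and 0.0566 without STAG2 KO clone 3). LIPI, a lipase gene, was higher (1.20 ± 0.25, adjusted p = 0.00836), at 0.73 (adjusted p = 0.127) against EZH2 KO and 1.66 (adjusted p = 0.00567) against SUZ12 KO, where the first was not called.

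The study assigned targets to EWS::FLI1 binding at the promoter or at distal GGAA repeats. Of promoter-bound genes 84 were higher and 61 lower in STAG2 KO cells among 552 tested (26.3%). Of genes in contact with distal repeats, 77 were higher and 106 lower among 687 for short repeats (26.6%), and 13 higher and 46 lower among 153 for long repeats (38.6%). The shares for promoters and short repeats are close to the 24.3% of all genes. Median log2 differences were 0.11, -0.02 and -0.31. The signature of STAG2-dependent genes was chosen by the study in part on these STAG2 KO libraries, so its direction is not independent evidence. Of its lower genes, 77 were lower and 2 higher than in PRC2 KO among 165 tested, and of its higher genes 20 were higher and 5 lower among 59. The remaining 86 and 34 genes were not called, which does not show that STAG2 KO and PRC2 KO were alike.

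Of interferon-stimulated genes 43 were tested of 51 listed, with 15 lower and 0 higher by edgeR, and of MHC class I presentation genes 21 were tested of 23 listed, with 7 lower and 0 higher. Without clone 5, 32 interferon-stimulated genes were lower among 44 tested, and 14 MHC class I genes lower and 1 higher among 22. OAS3, an antiviral oligoadenylate synthetase, was at 0.488, 0.929 and 10.5 CPM against 32.5 (lowest), 61.7 (median) and 93.0 (highest) (-3.93 ± 0.86, adjusted p = 0.011). HLA-C, a presenting molecule, was at 5.96, 7.07 and 33.0 CPM against 63.6 (lowest), 114 (median) and 165 (highest) (-2.88 ± 0.60, adjusted p = 0.00892). Clone 5 was above its sister clones for both. Without it the differences were -6.40 for OAS3 and -4.12 for HLA-C. OAS1 (-4.64 ± 0.97, and -6.85 without clone 5) and HLA-B (-3.12 ± 0.60, and -3.99) had the same order, with adjusted p of 0.00895 and 0.00628. The antiviral IFITM2 (-3.42 ± 0.59) and HLA-E (-1.52 ± 0.23) were lower too (adjusted p = 0.00394 and 0.00219), IFITM2 at -4.14 without clone 5. HLA and IFITM genes have near-identical copies, so their counts are uncertain.

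Of 9 epithelial markers, 5 were tested, with 3 lower and 0 higher by edgeR. KRT8, a keratin of simple epithelia, was at 9.16, 8.83 and 10.4 CPM in STAG2 KO clones and at 170.4 (lowest), 430.1 (median) and 862 (highest) in PRC2 KO cells (-5.53 ± 0.55, adjusted p = 0.000297). WT cells held 24.9 to 36.6 CPM of it. KRT8 differed from WT by -1.66 in STAG2 KO, 3.725 in EZH2 KO and 4.045 in SUZ12 KO cells (adjusted p = 0.0431, 0.000549 and 0.000252, edgeR). Its partner KRT18, whose exons overlap KRT8, differed less (-1.30 ± 0.30, adjusted p = 0.0135). The defining epithelial genes CDH1, KRT5, KRT14 and KRT19 stayed under 1 CPM in all libraries, and EPCAM did not pass 2.24. The 9 markers summed to 99.6 to 209 CPM in STAG2 KO, 422 to 1228 in PRC2 KO and 343 to 395 in WT cells. The 12 blood and endothelial markers summed to 3.15 to 3.74, 6.73 to 12.5 and 3.90 to 6.80 CPM, with 3 of 5 tested lower in STAG2 KO cells.

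None of 50 DNA replication and mitosis genes was called by edgeR with all clones, with log2 differences of -0.63 to 0.51. Without clone 5, 4 were higher. Their median of 0.09 was -0.03 without TMM scaling. CDKN1A, encoding the cyclin-dependent kinase inhibitor p21, was the 1 called of 5 tested inhibitors. It was at 14.9, 17.8 and 6.53 CPM in STAG2 KO clones and at 57.5 (lowest), 86.4 (median) and 180.5 (highest) in PRC2 KO cells (-2.88 ± 0.42, adjusted p = 0.00175). WT cells held 10.96 to 20.6 CPM, so the PRC2 KO clones stood above both others.

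Of 35 glycolysis and hypoxia genes 4 were lower and 1 higher (14.3%), and without clone 5 10 were lower and 2 higher. The stress-response gene NDRG1 (-2.31 ± 0.34, adjusted p = 0.00194) and the angiogenic factor VEGFA (-1.30 ± 0.18, adjusted p = 0.00121) were lower. Of 24 cholesterol synthesis genes HSD17B7 alone was called (-0.81 ± 0.20, adjusted p = 0.019), and not without STAG2 KO clone 2 or 3 (adjusted p = 0.0524 to 0.0805).

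Of imprinted genes 25 were tested of 37 listed, with 7 lower and 4 higher. Besides DLK1, ZDBF2, a zinc finger gene, was at 0.108, 0.361 and 0.211 CPM in STAG2 KO clones, 23.1 (lowest), 26.3 (median) and 30.8 (highest) in PRC2 KO cells and 0 to 0.160 in WT cells (-6.79 ± 0.35, adjusted p = 1.87e-05). Every PRC2 KO clone expressed it at about the same level, and no other library did beyond a few counts. TP73, a p53 family member, was lower (-3.70 ± 0.51, adjusted p = 0.00129, and -4.32 without clone 5).

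Clustered protocadherins give neurons their surface identity. Of these 41 were tested of 53 listed, with 1 lower and 5 higher, 14.6% in all against 24.3% of all genes. PCDHGC3 was at 30.4, 28.0 and 24.7 CPM against 56.0 (lowest), 62.3 (median) and 69.3 (highest) (-1.16 ± 0.13, adjusted p = 0.000514). PCDHA10 (1.19 ± 0.27) and PCDHB6 (0.75 ± 0.19) were higher (adjusted p = 0.0118 and 0.02). Both calls were lost without STAG2 KO clone 2 or 3, and that of PCDHB6 also without SUZ12 KO clone 1 (0.051 to 0.0881 adjusted p). PCDHA and PCDHG transcripts share exons, which makes their counts uncertain.

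Among cohesin subunits and regulators 17 were tested of 19 listed, with 1 lower and 6 higher, the lower one being STAG2 itself. The higher ones were STAG1, SMC3, NIPBL, PDS5A, PDS5B and ESCO1. Being higher than in PRC2 KO does not place a gene above WT. WT libraries held 104 to 124 CPM of STAG1 and 257 to 301 of PDS5A. Both overlapped the STAG2 KO clones (94.1 to 178 and 260.5 to 382). PDS5B, a regulator of cohesin release, was at 240.1, 199.8 and 177 CPM in STAG2 KO clones, 78.2 (lowest), 115 (median) and 122 (highest) in PRC2 KO and 116 to 138 in WT cells. STAG2 KO lay above both (0.96 ± 0.14 from PRC2 KO, adjusted p = 0.00167). Its paralog PDS5A was higher (0.59 ± 0.16, adjusted p = 0.0278), a call lost without STAG2 KO clone 2 or SUZ12 KO clone 1 or 2 (adjusted p = 0.0626 to 0.127). STAG1, the alternative subunit, was at 178, 147 and 94.1 CPM against 65.8 (lowest), 83.97 (median) and 108 (highest), so the groups overlapped (0.74 ± 0.21, adjusted p = 0.0303). That call was lost without any 1 of STAG2 KO clones 2 and 3, the 3 EZH2 KO clones and SUZ12 KO clones 1 and 2 (adjusted p = 0.051 to 0.141). RNF141, a RING finger protein gene that the study works on, was lower at 51.7, 59.6 and 55.3 CPM against 77.2 to 142 (-0.87 ± 0.19, adjusted p = 0.00939). WT cells held 63.0 to 77.6 CPM, and RNF141 differed from WT by -0.31 in STAG2 KO, 0.74 in EZH2 KO and 0.43 in SUZ12 KO cells (adjusted p = 0.321, 0.0238 and 0.137).

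Among Polycomb genes, the edited EZH2 and SUZ12 were the called core subunits, 2 of 6, so the list holds no result beyond the edit. Of PRC2 accessory subunits 8 were tested of 9 listed, with 3 lower and 1 higher. PHF19 was at 43.9, 45.1 and 45.1 CPM against 56.7 (lowest), 63.7 (median) and 71.5 (highest) (-0.50 ± 0.10, adjusted p = 0.00849). AEBP2 was higher (0.47 ± 0.12, adjusted p = 0.0207), but not without STAG2 KO clone 2 or 3 (adjusted p = 0.06 to 0.0742). PHF1 was just past the threshold (-0.35 ± 0.11, adjusted p = 0.0496) and lost its call on leaving out any 1 of the 9 libraries (adjusted p = 0.0516 to 0.17). Of subunits of PRC1, another Polycomb complex, 26 were tested of 26 listed, with 2 lower and 4 higher, 23.1% and near the share of all genes. PCGF5 was at 24.9, 16.1 and 26.3 CPM in STAG2 KO, 43.8 (lowest), 51.3 (median) and 55.5 (highest) in PRC2 KO and 17.2 to 21.1 in WT cells (-1.15 ± 0.18, adjusted p = 0.00239), so the PRC2 KO clones stood above both others.

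**Figure D5:**
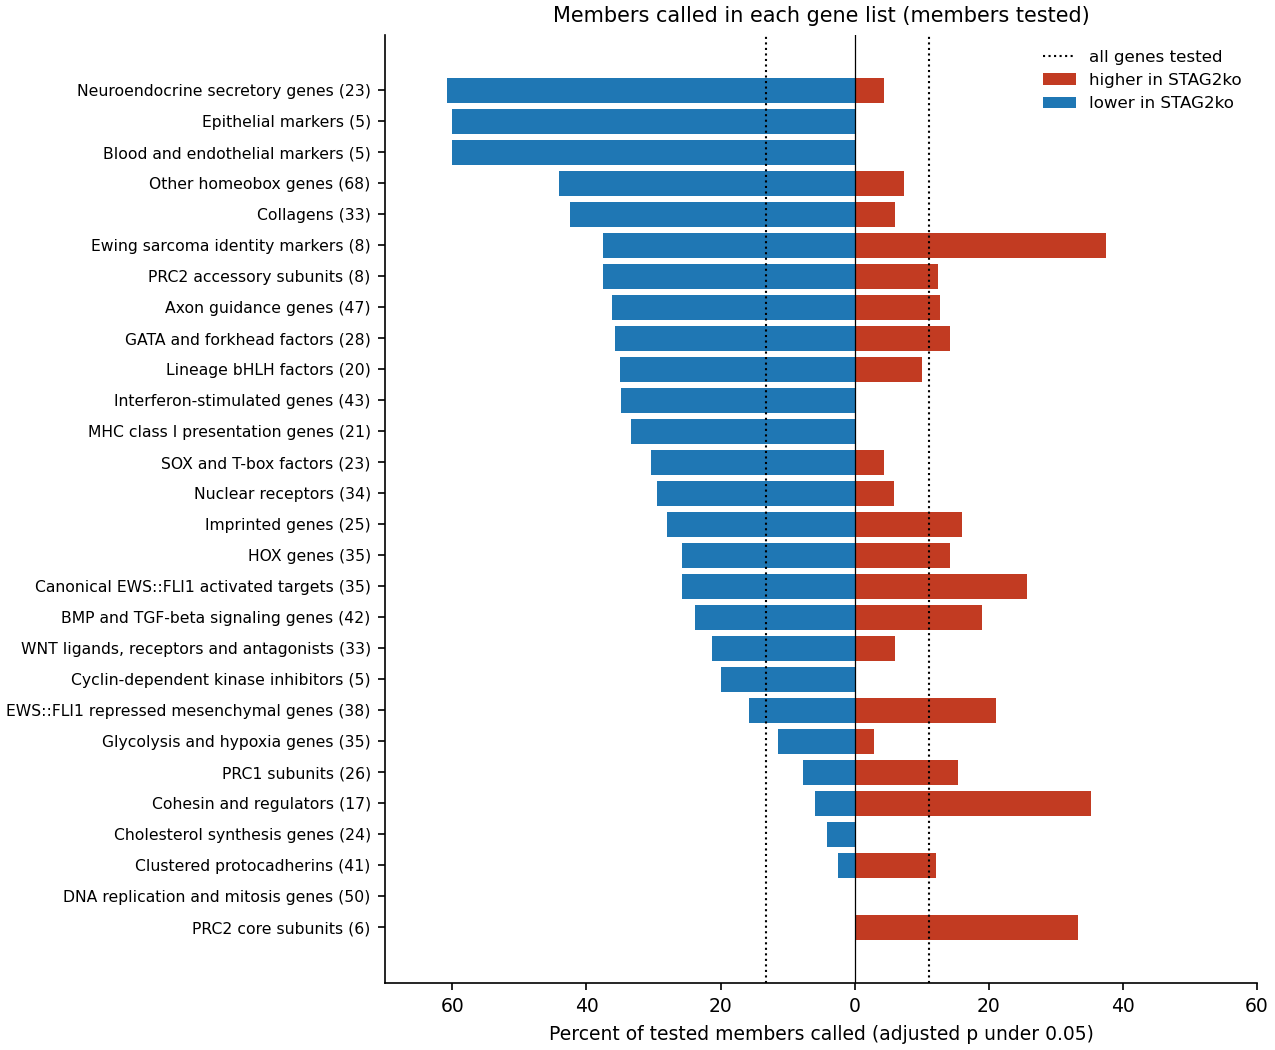
Percent of tested members called lower and higher in STAG2 KO than in PRC2 KO cells for each list of genes, with the number tested, and lines at the 13.2% and 11.1% of all genes. Neuroendocrine, other homeobox and collagen genes reach far to the lower side (14 of 23, 30 of 68 and 14 of 33), cohesin genes to the higher side (6 of 17), and DNA replication genes have no bar.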

How the data were processed

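RNA-seq of 12 A673 libraries of experiment 2 was analysed, of which 9 (3 STAG2 KO, 3 EZH2 KO, 3 SUZ12 KO) entered the test. Per the labels and methods, the authors aligned single-end reads of non-directional libraries to hg38 with TopHat2 (version 2.0.0) running on Bowtie (0.12.7), handled alignments in SAMtools (0.1.16), and deposited whole-number counts per gene symbol (28278 genes), not normalized. The counting program and annotation are not given in the sources used here.

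The quasi-likelihood test of edgeR 4.0.16 (R 4.3.3) was applied after filterByExpr and TMM scaling to 3 genotypes, and STAG2 KO was set against the equally weighted mean of both PRC2 KOs. A gene counted as called when its p, adjusted by Benjamini-Hochberg over all genes tested, was under 0.05. CPM use TMM factors of a 12-library fit, which also gave the differences from WT. Folds against a group without counts use a floor of 3 counts over the group, and counting intervals cover counting error only.

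Named were the genes the study works on, the 10 highest and 10 lowest called genes with at least 5 CPM on average and no overlap between groups, and up to 3 such genes per list. Some of these are not reported here. Members and lists were chosen with earlier results of these data known. The GENCODE promoter windows were added after seeing the data, since the RefSeq table held under 80% of the lower genes. Positions are from GENCODE 44 (hg38). Of the 89 named genes, 44 share exonic bases with another gene, and without strand such reads cannot be told apart. The fit was tested on simulated data, where 25 of 96 planted 2-fold and 74 of 98 planted 4-fold changes were called. Of 14595 unchanged genes 7 were called. A gene not called is thus not shown to be unchanged. Alternatives were DESeq2 1.42.0, other scalings, no filter, 2 groups, WT in the fit, each PRC2 KO alone, a clone number block and each library left out.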

Additional observations from a re-analysis of the deposited data

Results flagged for a closer look

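In 7 of 91 values tested, 1 PRC2 KO library lay far from the other 5 (by Dixon's test at its 95% critical value), where chance flags about 1 in 20. EZH2 KO clone 2 was the high one for ALPK2 at 7.256 CPM (others 0.946 to 2.996), HOXD10 at 37.61 (23.5 to 27.6), MSRB3 at 8.862 (1.34 to 2.68) and SPX at 9.361 (0.962 to 2.92). SUZ12 KO clone 2 was high for DLK1 at 29.06 CPM (others 1.20 to 11.1) and low for MECOM at 1.967 (9.08 to 12.1). SUZ12 KO clone 1 was high for WT1-AS at 16.69 CPM (7.81 to 9.75).

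EZH2 was also picked out because STAG2 KO differed from EZH2 KO otherwise than from SUZ12 KO, by a test of the difference itself (EZH2 KO minus SUZ12 KO log2 difference -2.318, adjusted p = 0.032 by edgeR). It is the gene edited in EZH2 KO cells.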

How the results depend on the processing

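Leaving out 1 library gave 2274 to 5755 called genes, 884 to 2420 higher and 1339 to 3335 lower, 1346 to 4238 against EZH2 KO, 1728 to 5213 against SUZ12 KO, and 0 to 1 between EZH2 KO and SUZ12 KO. The difference in genes at 1 CPM or more ran from -1367 to -895.7. With EZH2 KO libraries only, 1232 genes were called (355 higher, 877 lower), and with SUZ12 KO libraries only 2030 (674 higher), both with fewer samples. DESeq2 called 4899, of which 3637 were shared, 3529 against EZH2 KO and 22 between the PRC2 KOs, and gave no adjusted p to 5195 genes. With the clone number as a replicate block 5080 were called (3084 shared), 3712 against EZH2 KO, 4607 against SUZ12 KO and 0 between the PRC2 KOs. The clone numbers are not shown to pair samples, since only 4 of 7 same-number pairs had deviations correlated over 0.1 (r = -0.378 to 0.379) and 3 of 8 libraries correlated best with their own number. EZH2 reversed to -0.2383 with SUZ12 KO libraries only, the EZH2 KO clones being left out. Of the 89 named genes, 77 kept their call without any 1 library, and AUTS2, CBX6 and ANGPTL4 were among the 12 that did not. PPARA, HSD17B7, PHF1 and PCDHB6 were not called against EZH2 KO alone, ANGPTL4, AEBP2 and PDS5A not against SUZ12 KO alone, and STAG1, CBX6 and AUTS2 against neither. Without TMM scaling 36.1% of 3274 calls were higher, against 45.7%, and the medians of PRC1, replication and BMP and TGF-beta lists changed sign near 0. For the causes of these shifts beyond the samples left out, the cause was not tested. At these depths a gene without counts in STAG2 KO cells has only a bound on its fold.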

Other observations

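The zinc finger cluster around ZFP30 on chromosome 19 was higher in STAG2 KO than in PRC2 KO cells beyond the named genes. Of 10 tested genes within 500 kb of ZFP30, 7 were higher (ZNF383, ZNF569, ZNF570, ZNF571, ZNF573, ZNF585B and ZNF607) and 0 lower by edgeR, while over chromosome 19 as a whole 6.39% of 1018 genes were higher and 13.4% lower. Around DSG2, the desmosomal cadherin genes DSC1 and DSC2 and the ubiquitin ligase gene RNF125 were lower and B4GALT6 and TRAPPC8 higher, 5 of 5 tested. These neighborhoods were looked at after the values of ZFP30 and DSG2 were seen.

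Called genes were unevenly spread over chromosomes. The share higher in STAG2 KO cells was 22.4% of 219 genes on chromosome 18 and 19.1% of 669 on chromosome 5, but 2.51% of 358 on chromosome 22. The share lower was 19.04% of 814 genes on chromosome 11, against 13.2% of all genes. Of 668 long noncoding RNA genes 3.74% were higher and 11.1% lower, against 12.01% and 13.67% of 13420 protein-coding genes.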
